A study of Mus musculus with 9 samples.

Results

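The genes described here are the 3 receptors for R-spondins, Lgr4, Lgr5 and Lgr6, and 7 genes that carry out or report the Wnt response: Axin2, Tcf7, Tcf7l2, Lef1, Znrf3, Rnf43 and Nkd1. These 10 genes were taken by symbol from the 56748 genes of the deposited table, with all 9 libraries. The libraries came from cultures of wild-type primary basal stem cells of the mouse trachea, the progenitors from which the airway lining is renewed. All were kept at an air-liquid interface, which drives them to build a layered epithelium, and RNA was taken on day 1, day 3 or day 5, with 3 libraries each. The submitters give these days as phases of basal cell proliferation, layering of the epithelium and luminal cell specification. Strain, age and sex of the animals are not in the labels, and neither is whether replicates are separate cultures or animals. The p-values thus set differences between days against the scatter of these libraries, and that scatter may be technical.

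Wnt ligands bind a Frizzled receptor and its partner Lrp5 or Lrp6 at the cell surface, which lets beta-catenin collect and join a TCF or LEF protein on DNA. Znrf3 and Rnf43 are membrane ubiquitin ligases that clear Frizzled from the surface, and an R-spondin bound to Lgr4, Lgr5 or Lgr6 takes these ligases away and so raises the response. Axin2, Nkd1, Znrf3 and Rnf43 are themselves induced by the pathway in many tissues and dampen it, which is why they serve as readouts. In the airway, Wnt signals are known to act on basal cell growth and on the choice between basal and luminal fates.

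Promoters are shown for 3 genes at the ends of the results: Lgr6, with the largest rise among the 8 tested genes, Axin2, with the largest fall, and Tcf7l2, which rose in both steps. Each is the 250 bases before a RefSeq start site in build GRCm38.p6, written 5′ to 3′ on the gene's own strand. Capitals mark CTTTG or its reverse complement CAAAG, the short core of the TCF and LEF binding sequence. The windows lie at chr1:135105277-135105526 on the minus strand for Lgr6, at chr11:108920099-108920348 on the plus strand for Axin2 and at chr19:55741560-55741809 on the plus strand for Tcf7l2.
Lgr6: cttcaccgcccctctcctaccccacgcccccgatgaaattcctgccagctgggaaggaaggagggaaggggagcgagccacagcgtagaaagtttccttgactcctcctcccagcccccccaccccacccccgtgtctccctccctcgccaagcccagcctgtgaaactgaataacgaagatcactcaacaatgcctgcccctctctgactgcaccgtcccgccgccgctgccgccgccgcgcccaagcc
Axin2: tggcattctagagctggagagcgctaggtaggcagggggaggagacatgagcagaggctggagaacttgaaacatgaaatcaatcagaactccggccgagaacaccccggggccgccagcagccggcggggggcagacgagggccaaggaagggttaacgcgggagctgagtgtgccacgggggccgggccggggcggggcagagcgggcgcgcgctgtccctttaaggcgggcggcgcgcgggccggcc
Tcf7l2: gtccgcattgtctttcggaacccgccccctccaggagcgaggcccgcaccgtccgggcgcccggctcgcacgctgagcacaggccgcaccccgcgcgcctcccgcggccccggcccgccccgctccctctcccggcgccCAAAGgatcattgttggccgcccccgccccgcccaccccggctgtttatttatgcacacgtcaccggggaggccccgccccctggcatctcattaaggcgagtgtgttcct
The Tcf7l2 window holds the core once, with its first base at -111 from the start site, and the other 2 windows do not hold it. RefSeq windows matched 8 of the 10 genes, and 2 of these 8, Lef1 and Tcf7l2, had the core in at least 1 window. Counted by window, 6 of the 14 windows of these genes held the core on either strand, against 48.6% of all 32851 windows of this length. All were windows of Lef1 and Tcf7l2, and some of Lef1 overlap and share a site, so windows are not independent. Another Tcf7l2 window, not shown, held the core at -14 from its own start site. The longer forms CTTTGAA and CTTTGAT, which contain the core and were also searched on both strands, were in 0 of the 14 windows of these genes and in 7.48% of all windows. A missing match says only that these letters are not in this stretch.

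Library totals ran from 16.4 to 35.1 M reads and were highest on day 1 (mean 30.8 M, against 21.9 and 17.6 M on the later days). All 10 listed basal cell markers, Krt5, Krt14 and Trp63 among them, averaged at least 10 normalized counts on each day. Their levels were not steady. From day 1 to day 5 some fell, such as Krt5 (log2 change -1.48) and Itga6 (-3.13), and others rose, such as Ngfr (2.47) and Dapl1 (4.38). A normalized count is a gene's reads divided by the size factor of its library. The libraries of day 1 also differ from the later ones in sex-linked RNA: the sum of 4 Y-linked genes was 3137 ± 113, 324 ± 24.2 and 461 ± 98.3 normalized counts on days 1, 3 and 5 (mean ± SD, n = 3, as throughout). Xist, the RNA of the inactive X, stood at 1825 ± 246, 5998 ± 507 and 7373 ± 1292. A difference between day 1 and a later day cannot be told apart from one between the animals used. The Y-linked sums of day 3 (300 to 348) and day 5 (401 to 575) did not overlap either, so the same limit may hold between these days. Of the markers of other tracheal cells, 9 leukocyte genes summed to 21.6 to 48.4 normalized counts in any library and 7 endothelial genes to 9.85 to 27.5, and Sox10, a gland marker, had no read. Of the 9 gland genes, the summed level of 2266 to 4780 on day 1, 40388 to 47339 on day 3 and 175553 to 227894 on day 5 was nearly all the secreted proteins Ltf (3433, 44707 and 68587 on average) and, on day 5, Bpifa1 (125696), while Sox9 averaged 418, 187 and 171. None of the 10 genes has its last 500 bases under exons of another gene in GENCODE M21, but 13.7% of the exonic bases of Lef1 and 3.80% of those of Axin2 overlap a gene on the opposite strand, which matters if counting ignored strand.

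**Figure D1:**
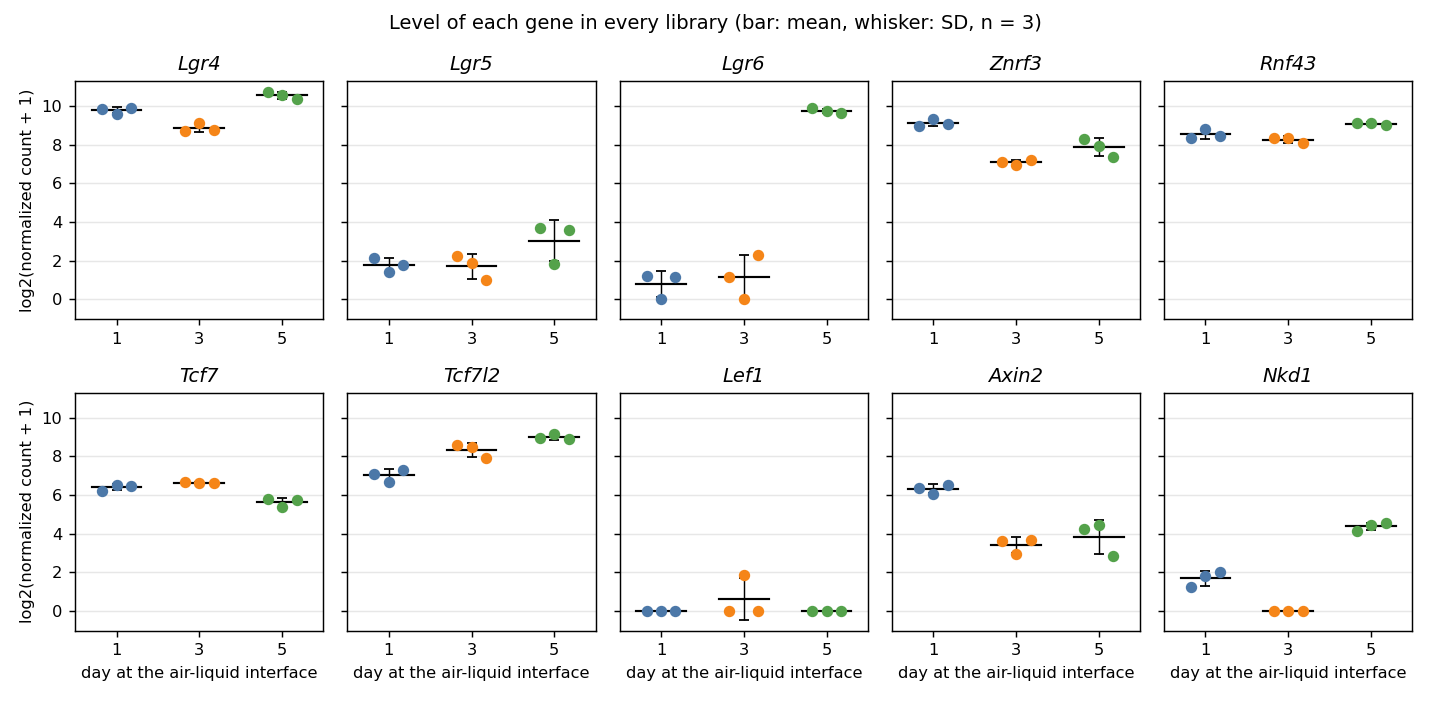
Level of each of the 10 genes in all 9 libraries, as log2(normalized count + 1) against the day, with 1 point per library, the mean as a bar and the SD as a whisker. The 3 day 5 libraries of Lgr6 sit between 799 and 936 normalized counts, above all earlier ones, which reach 3.95 at most, while Axin2 is highest on day 1 and Lef1 is at 0 in 8 of 9 libraries.

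Among the receptors, Lgr4 was the main one on every day and Lgr6 appeared on day 5. Lgr4 (ENSMUSG00000050199), the receptor most widely found in epithelia, had 919, 772 and 940.5 normalized counts in the libraries of day 1. It had 421, 550.3 and 437 on day 3, and 1689.5, 1499.9 and 1329 on day 5. No day overlapped another: day 3 was lowest and day 5 highest. Lgr4 fell from day 1 to day 3 by 0.91 on the log2 scale (SE 0.14, limma adjusted p = 1.4e-04) and rose from day 3 to day 5 by 1.68 (SE 0.14, adjusted p = 3.4e-06). The steps themselves differed by 2.59 on the log2 scale (SE 0.24, adjusted p = 1.4e-05), and day 5 stood 0.78 above day 1 (adjusted p = 3.8e-04). In a fit that took out the trend with transcript length and GC content, the first step was -0.28 and did not pass (adjusted p = 0.060). In these bulk libraries, fewer cells of a type and less RNA per cell cannot be told apart.

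Lgr6 (ENSMUSG00000042793), a receptor known from stem cells of the skin and from airway smooth muscle, had 1.36, 0 and 1.21 normalized counts on day 1 and 1.25, 0 and 3.95 on day 3. On day 5 it had 936, 836 and 799. The first 2 days are thus a matter of single reads, 4 in all on day 1 and 5 on day 3, against 2242 reads on day 5. From day 3 to day 5 the pooled level rose 442-fold (95% counting interval 189 to 1363), and from day 1 to day 5 it rose 934-fold (364 to 3432). These intervals cover counting error only. In the limma fit the rise from day 3 to day 5 was 8.58 on the log2 scale of normalized count + 1 (SE 0.55, adjusted p = 7.1e-07), the 11th largest of the 17338 genes tested. It was 6.49 with a pseudocount of 8, still past the threshold. Lgr6 reached 10 normalized counts on day 5 alone, the level needed for testing, so a difference between days was fixed in advance. Its adjusted p and its place are thus a description and no support for the rise. The first step was 0.36 (SE 0.55, adjusted p = 0.57) and has no firm direction at this depth: it was -0.21 without replicate 3 of day 3 and -0.03 without replicate 2 of day 1.

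Markers of other cell types were read beside Lgr6. The multiciliated cell list, added after the values of Lgr6 were seen, holds 11 regulators and centriole genes, and its summed level was 559 to 646 normalized counts on day 1, 532 to 572 by day 3 and 5415 to 6813 by day 5. All 11 averaged at least 10 on day 5, against 4 on day 1 and 6 on day 3. Foxj1, the master regulator of motile cilia, stood at 2.01 ± 1.29, 41.9 ± 9.31 and 2594 ± 262 normalized counts, and Mcidas, which starts centriole amplification, at 0.780 ± 0.835, 5.21 ± 1.39 and 303 ± 53.1. The smooth muscle list of 8 genes summed to 25.1 to 32.7, 21.2 to 27.6 and 43.6 to 55.5. Of 10 fibroblast markers, 1 averaged at least 10 on day 5, Dcn, the matrix proteoglycan decorin, which had no read on days 1 and 3 and 112 ± 16.1 normalized counts on day 5. Col1a1, the main fibroblast collagen, averaged 0.661 ± 1.14 on day 5. The part of any of these cell types in the rise of Lgr6 was not tested.

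Lgr5 (ENSMUSG00000020140), the receptor that marks stem cells of the intestine and hair follicle, had at most 12 reads in a library. It had 3.39, 1.66 and 2.43 normalized counts on day 1, 3.75, 2.68 and 0.987 on day 3, and 11.9, 2.58 and 11.1 on day 5. On day 5, 2 libraries were higher than all earlier ones and the other was not, so the days overlap. The pooled level on day 5 was 3.49 times that on day 1 (counting interval 1.63 to 7.92, which leaves out the spread between libraries). Lgr5 did not reach 10 normalized counts in 3 libraries and was not tested. With no filter on low counts, the change from day 1 to day 5 was 1.27 on the log2 scale (adjusted p = 0.10).

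Of the ligases that R-spondin receptors act on, Znrf3 fell after day 1, and both rose from day 3 to day 5. Znrf3 (ENSMUSG00000041961) had 499.8, 641 and 538 normalized counts on day 1, 137, 122 and 146 on day 3, and 313, 239 and 164 on day 5. All libraries of day 1 were above those of day 5, and all of day 5 above those of day 3. Znrf3 fell by 2.04 on the log2 scale in the first step (SE 0.22, adjusted p = 1.2e-05) and rose by 0.77 in the second (SE 0.22, adjusted p = 9.2e-03), which left it 1.27 below day 1 (adjusted p = 3.1e-04).

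Rnf43 (ENSMUSG00000034177) had 329, 446 and 347 normalized counts on day 1, 328, 325 and 266 on day 3, and 561, 551 and 518 on day 5. Day 5 was above both other days, and day 1 lay just above day 3. Its first step was -0.28 on the log2 scale (SE 0.14, adjusted p = 0.097), which passed once the length and GC trend was taken out (-0.45, adjusted p = 8.3e-03). The second step was a rise of 0.83 (SE 0.14, adjusted p = 4.9e-04), and day 5 was 0.55 above day 1 (adjusted p = 4.7e-03).

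Of the nuclear factors, Tcf7l2 rose and Tcf7 fell from day 1 to day 5, and Lef1 was close to absent. Tcf7l2 (ENSMUSG00000024985), the TCF best known from intestinal crypts, had 136, 99.6 and 153 normalized counts on day 1, 388, 349 and 236 on day 3, and 485, 568 and 479 on day 5, so each day lay above the one before. It rose by a log2 change of 1.31 in the first step (SE 0.21, adjusted p = 2.3e-04) and of 0.68 in the second (SE 0.21, adjusted p = 0.016), or 1.99 in all (adjusted p = 9.3e-06). The second step did not pass without replicate 3 of day 3 (0.46, adjusted p = 0.057), without replicate 2 of day 5 (0.60, adjusted p = 0.063) or once the length and GC trend was taken out (0.40, adjusted p = 0.13).

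Tcf7 (ENSMUSG00000000782), the factor first found in T lymphocytes, had 73.2, 90.5 and 87.9 normalized counts on day 1, 101, 97.7 and 97.7 on day 3, and 53.5, 40.0 and 52.9 on day 5. Day 5 was below both other days. The fall from day 3 to day 5 was -1.02 on the log2 scale (SE 0.20, adjusted p = 1.2e-03) and that from day 1 to day 5 was -0.78 (adjusted p = 4.6e-03). The first step, 0.24 (SE 0.20, adjusted p = 0.29), turned to -0.18 once the length and GC trend was taken out. Lef1 (ENSMUSG00000027985), the LEF factor of hair follicles and airway gland buds, had 2 reads in 1 library of day 3 and none in the other 8. Its count of 0 over the 3 libraries of a day allows up to 0.693 normalized counts on day 1 and 1.16 on day 5. Of 12 T lymphocyte markers, Cd3g and Cd8a had no read in any library, and the list summed to 15.8 to 49.1 normalized counts on day 1, 46.4 to 58.9 by day 3 and 30.7 to 51.7 by day 5. The highest on average was Lck, at 4.14 ± 5.01, 29.5 ± 12.8 and 18.8 ± 7.83 on days 1, 3 and 5. Cd247 averaged 1.01, 0 and 14.9 on these days, and Cd5 14.9, 7.50 and 1.68. Counts per gene do not separate the forms of Tcf7, Lef1 and Tcf7l2 that lack the part binding beta-catenin.

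The feedback genes Axin2 and Nkd1 both fell in the first step, and Nkd1 rose in the second. Axin2 (ENSMUSG00000000142), a scaffold of the complex that destroys beta-catenin and the usual readout of the pathway, had 81.4, 65.6 and 91.0 normalized counts on day 1. It had 11.2, 6.69 and 11.8 on day 3, and 17.8, 20.7 and 6.15 on day 5. Every later library was far below every library of day 1, and days 3 and 5 overlapped. Axin2 fell by 2.90 on the log2 scale in the first step (SE 0.43, adjusted p = 1.2e-04) and was still 2.48 lower on day 5 (SE 0.43, adjusted p = 3.4e-04). The pooled level on day 3 was 0.126 of that on day 1 (counting interval 0.0811 to 0.188). The second step was 0.42 (SE 0.43, adjusted p = 0.40). It was 0.92 without replicate 3 of day 5, the lowest library of that day (adjusted p = 0.034). Under quantile normalization it was -0.30 (adjusted p = 0.60).

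Nkd1 (ENSMUSG00000031661), which binds Dishevelled and restrains the response, had 1.36, 2.49 and 3.03 normalized counts on day 1, no read on day 3, and 16.8, 20.7 and 22.2 on day 5. The days did not overlap, but the levels are low: 10 reads on day 1 and 51 on day 5. Against a floor of 3 reads over the 3 libraries of day 3, day 5 was 16.8-fold higher, a ratio that leaves out the counting error of day 5. The counting interval for the rise from day 3 to day 5 started at 13.1-fold and had no upper limit. From day 1 to day 5 the pooled level rose 8.50-fold (counting interval 4.27 to 18.8), and the limma change was 2.69 (SE 0.36, adjusted p = 5.5e-05). Nkd1, like Lgr6, reached 10 normalized counts on day 5 alone, so that adjusted p is a description and no support for the rise. The fall in the first step (-1.68, adjusted p = 1.6e-03) was lost with a pseudocount of 8 (-0.36, adjusted p = 0.063).

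**Figure D2:**
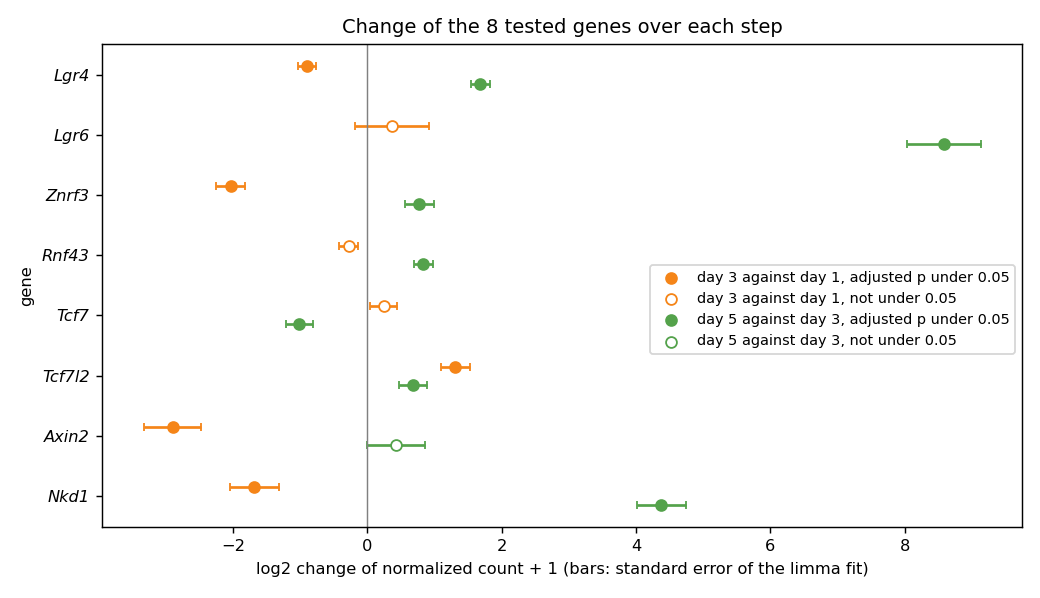
Log2 change of the 8 tested genes in each step, with the standard error of the limma fit as bars and filled points where the adjusted p was under 0.05. Axin2 and Znrf3 have the largest falls of the first step, -2.90 and -2.04, and Lgr6 and Nkd1 the largest rises of the second, 8.58 and 4.38.

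In all, 8 of the 10 genes had at least 10 normalized counts in at least 3 libraries and were tested, and Lgr5 and Lef1 were not. Lgr6 and Nkd1 reached that level on day 5 alone, so they had to differ between days, and counts over the 8 are a description. From day 1 to day 3, Tcf7l2 rose and Lgr4, Znrf3, Axin2 and Nkd1 fell; of all 17338 genes tested, 36.1% were called higher and 37.0% lower, or 73.0% in all. From day 3 to day 5, 6 of the 8 rose and Tcf7 fell, against 34.8% higher and 32.4% lower over all genes (67.3% together). From day 1 to day 5, 5 rose and 3 fell, against 36.7% and 37.7% (74.5% together). The median log2 change of the 8 was -0.59 in the first step and 0.80 in the second, and over all tested genes 0.003 and 0.06. The F test over the 3 days called all 8, as it did 91.4% of all tested genes, so that count sets nothing apart. The second step was more positive than the first in 6 of the 8 and in 36.8% of all tested genes, and more negative in Tcf7 and in 33.9% (70.7% together). Tcf7l2 did not pass (adjusted p = 0.15), but did without replicate 3 of day 3 (-1.06, adjusted p = 0.021). Both steps use the libraries of day 3.

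Levels of different genes were compared per kilobase of the longest transcript. On day 1 the order was Lgr4 (173 ± 18.1 normalized counts per kilobase), Znrf3 (88.7 ± 11.6), Rnf43 (86.8 ± 14.6), Tcf7l2 (34.9 ± 7.33), Tcf7 (33.9 ± 3.77) and Axin2 (18.6 ± 3.01), with the other 4 genes below 1. The libraries of Znrf3 and Rnf43 overlapped, as did those of Tcf7l2 and Tcf7. On day 3 Lgr4 (92.8 ± 13.9), Tcf7l2 (87.4 ± 21.3) and Rnf43 (71.2 ± 8.11) came first, each overlapping the next in line, followed by Tcf7 (40.0 ± 0.808), Znrf3 (21.4 ± 1.94) and Axin2 (2.33 ± 0.661). On day 5 Lgr4 led again (298 ± 35.6), and Tcf7l2 (137 ± 13.4), Lgr6 (128 ± 10.7) and Rnf43 (126 ± 5.20) followed with overlapping libraries. Znrf3 (37.8 ± 11.8), Tcf7 (19.8 ± 3.09), Nkd1 (4.87 ± 0.670) and Axin2 (3.49 ± 1.80) came below them. Axin2 thus passed from sixth to eighth place, below Nkd1, whose libraries overlapped its own. The place of Tcf7l2 depends on the length used: with merged exon lengths it was at 14.8 ± 3.10 on day 1, below Tcf7 (32.0 ± 3.55). By that length the order behind Lgr4 on day 5 was Lgr6 (125 ± 10.4), Rnf43 (82.9 ± 3.42) and Tcf7l2 (58.2 ± 5.69), with no overlap among them.

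**Figure D3:**
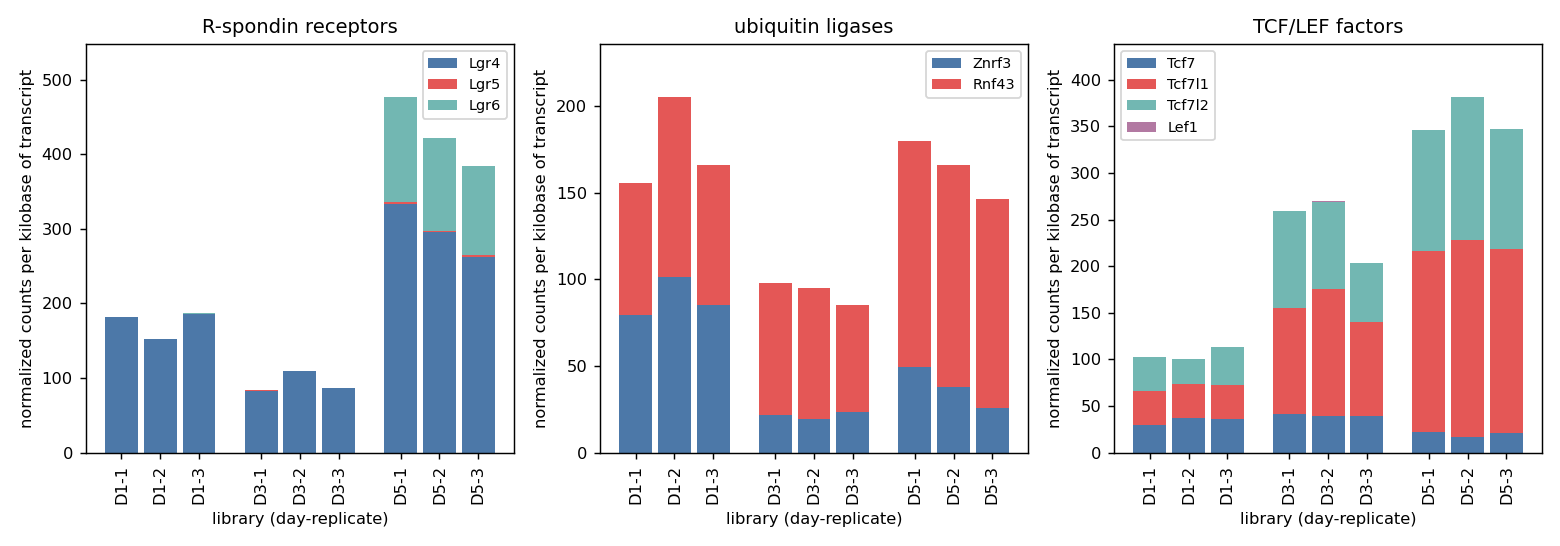
Normalized counts per kilobase of transcript in each library, stacked by gene, for the R-spondin receptors, the ubiquitin ligases, and the TCF and LEF factors with Tcf7l1 added. Lgr6 takes 29.4% to 31.1% of the receptor total in the day 5 libraries and under 1% in the others, and Tcf7 shrinks from 28.8% to 36.4% of its family on day 1 to 4.25% to 6.25% on day 5.

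The make-up of each family changed with the days. The summed level of the receptors was 174 ± 18.3 normalized counts per kilobase on day 1, 93.6 ± 13.7 on day 3 and 428 ± 46.3 on day 5. Lgr6 made up 30.1% ± 0.906 of it on day 5 (SD, n = 3), or 32.8% when lengths of all merged exons were used. Lgr4 kept 69.5% ± 1.06, from 99.6% on day 1. The ratio of Rnf43 to Znrf3 was 0.946 to 1.02 in the libraries of day 1, 2.67 to 3.91 on day 3 and 2.62 to 4.64 on day 5, so days 3 and 5 overlapped and both lay above day 1. The ratio of Tcf7l2 to Tcf7 was 0.732 to 1.24 in the libraries of day 1, 1.61 to 2.55 by day 3 and 6.02 to 9.44 by day 5. With merged exon lengths, which are more than 2 times longer for Tcf7l2, it was 0.329 to 0.557, 0.722 to 1.149 and 2.71 to 4.25. The ratio was thus higher on each later day by either length, but which of the pair was higher on days 1 and 3 depends on the length used. For a single value, 3 libraries against 3 cannot give an exact two-sided permutation p below 0.1.

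The other Wnt pathway genes were 79 genes in 6 roles, the Wnt ligands left aside, and 59 of them were tested. Ror1 and Fzd9 reached 10 normalized counts on day 1 alone, and Prox1 and Nrcam on day 5 alone. They had to differ between days, so counts that include them are a description. In the first step 12 rose and 32 fell (20.3% and 54.2%, median change -0.66 on the log2 scale), against 36.1% and 37.0% of all tested genes. In the second 33 rose and 8 fell (55.9% and 13.6%, median 0.33), against 34.8% and 32.4%. From day 1 to day 5, 23 rose and 26 fell (39.0% and 44.1%, median -0.13), near the 36.7% and 37.7% of all tested genes. The falls of the second step numbered 15 once the length and GC trend was taken out. Shares of all tested genes, here and for the roles below, are those of the main fit, so they are no measure for counts from other fits. R-spondins themselves were close to absent: Rspo2 had no read, Rspo3 and Rspo4 had 1 each, and Rspo1 had 6, all on day 5.

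**Figure D4:**
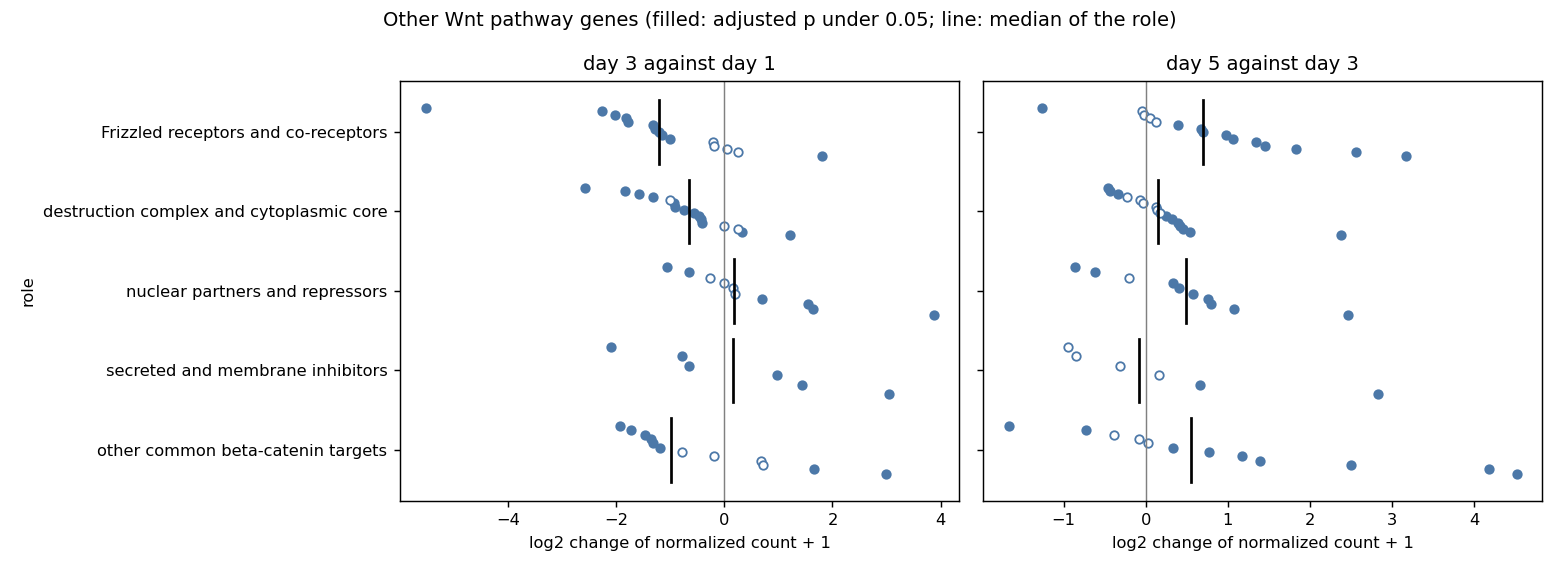
Log2 change of the 59 tested genes of the other Wnt roles in each step, 1 point per gene, filled where the adjusted p was under 0.05, with the median of each role as a line. In the Frizzled and co-receptor role 10 of 15 fell in the first step, against 37.0% of all tested genes. In the second step 10 of 15 rose, against 34.8%.

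Among 15 Frizzled receptors and co-receptors, 10 fell and 1 rose in the first step, against 37.0% and 36.1% of all tested genes. In the second, 10 rose and 1 fell, against 34.8% and 32.4%. Each single count became 2 once the length and GC trend was taken out. Fzd2 was the receptor that rose early, from 33.7 ± 8.44 to 120 ± 20.8 normalized counts, and reached 250 ± 27.3 on day 5 (log2 change over both steps 2.88, adjusted p = 8.6e-07). Fzd8 went from 82.8 ± 4.89 on day 3 to 495 ± 82.8 on day 5 (2.55, adjusted p = 8.4e-06). Ror1, a receptor of Wnt5a, fell from 113 ± 31.2 to 1.91 ± 1.87 in the first step (-5.52, adjusted p = 8.2e-06). Ror1 and Fzd9, both among the falls, reached 10 normalized counts on day 1 alone. The adjusted p of Ror1 is thus a description and no support for its fall. The essential co-receptors fell too, Lrp5 from 2617 ± 208 to 1187 ± 129 (-1.14, adjusted p = 3.3e-05) and Lrp6 from 2169 ± 201 to 894 ± 56.9 (-1.27, adjusted p = 1.5e-05). In the second step Lrp6 rose to 1447 ± 302 (0.68, limma adjusted p = 1.6e-03). Lrp5, at 1301 ± 241 on day 5, did not pass in that step (0.12, limma adjusted p = 0.46).

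Of the 16 genes of the destruction complex and cytoplasmic core, 11 fell and 2 rose in the first step, against 37.0% and 36.1% of all tested genes. In the second, 7 rose and 3 fell, against 34.8% and 32.4%. The second pair of counts became 3 and 7 once the length and GC trend was taken out; the rises numbered 4 with the replicate block, and they were 3 to 4 without any 1 of replicates 1 and 2 of day 3 and replicate 1 of day 5. Apc, the scaffold that holds the complex, fell from 2732 ± 367 to 765 ± 35.9 normalized counts and stood at 1022 ± 233 on day 5 (-1.43 from day 1, adjusted p = 1.1e-05). Btrc, the ligase subunit that tags beta-catenin, rose from 178 ± 20.3 to 411 ± 8.53 and 595 ± 14.4, though its second step did not pass once the length and GC trend was taken out (0.17, adjusted p = 0.31). Tnks2, a tankyrase that marks Axin for destruction, fell from 5553 ± 269 to 2228 ± 199 and was at 2146 ± 440 on day 5. Ctnnb1, beta-catenin itself, stood at 12343 ± 985, 2378 ± 1559 and 11151 ± 3878. Its values are uncertain, because 95% of its last 500 bases lie under exons of the opposite-strand gene Ulk4 in GENCODE M21 and the strand setting of the counting is not given.

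Nuclear partners and repressors held the largest rise among the 59 genes. Tle2, a Groucho-type co-repressor of TCF factors, went from 11.96 ± 3.20 to 187 ± 37.4 and 1027 ± 57.2 normalized counts (6.34 from day 1 to day 5, adjusted p = 6.8e-09). Tcf7l1, the TCF that acts mostly as a repressor, rose from 112 ± 1.07 to 355 ± 54.1 and 611 ± 29.7 (2.44, adjusted p = 7.5e-08), and made up 56.1% ± 0.516 of the TCF and LEF level per kilobase on day 5, from 34.9% ± 2.41 on day 1. With merged exon lengths these shares were 67.0% and 37.9%. Bcl9, a co-activator that bridges beta-catenin, rose from 301 ± 49.1 to 483 ± 11.4 and 726 ± 82.3. In the role as a whole, 6 of 10 tested genes rose from day 1 to day 5 and 3 fell, against 36.7% and 37.7% of all tested genes. The falls numbered 1 with TMM factors, under quantile normalization or without replicate 2 or 3 of day 1 or of day 5.

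Of 15 inhibitors 6 could be tested, 3 of which rose and 3 fell in the first step, against 36.1% and 37.0% of all tested genes. Apcdd1, a membrane inhibitor that Wnt signals induce, dipped and returned as Lgr4 did, from 144 ± 23.98 to 32.9 ± 6.31 and 239 ± 27.9 normalized counts (first step -2.10, adjusted p = 7.3e-06; second 2.83, adjusted p = 1.6e-06). Dkk3 rose from 42.0 ± 4.75 to 116 ± 18.7 in the first step (1.44, adjusted p = 1.6e-04), and Kremen1, a receptor of Dkk proteins, fell from 2062 ± 116 to 1305 ± 85.0 (-0.66, adjusted p = 2.7e-04). Of 18 other genes often used as beta-catenin targets 12 were tested. In the first step 2 rose and 6 fell, against 36.1% and 37.0% of all tested genes. In the second 7 rose and 2 fell, against 34.8% and 32.4%. From day 1 to day 5, 6 rose and 4 fell (50% and 33.3%, against 36.7% and 37.7% of all tested genes). The rises of these last 2 comparisons include Prox1 and Nrcam, which passed the filter through day 5 alone. Tnfrsf19, a receptor of stem cell compartments, went from 6.85 ± 3.09 and 11.8 ± 5.00 to 224 ± 60.4 (4.17 in the second step, adjusted p = 1.1e-05), and Ephb2 rose from 335 ± 29.5 to 1067 ± 153 and 1812 ± 61.6. Ccnd1, the cyclin of early G1, stood at 17844 ± 1361, 5548 ± 1539 and 1738 ± 430, but 100% of its last 500 bases lie under an opposite-strand gene, so these values are uncertain.

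The genes nearest in pattern were taken by the root mean square difference of log2 values, centred on each gene's mean, over the 9 libraries, among genes with at least 100 normalized counts on some day. Nearest to Axin2 were A630089N07Rik (0.33), Dcbld2 (0.34), a membrane receptor-like protein, and Sass6 (0.34), a protein of the centriole cartwheel. Dcbld2 stood at 2237, 307 and 424 normalized counts on days 1, 3 and 5. Nearest to Lgr4 were Sel1l (0.10), an adaptor of protein disposal in the endoplasmic reticulum, Spag1 (0.12), which helps assemble dynein arms, and Tob2 (0.13), an antiproliferative protein. Sel1l stood at 2695, 1500.4 and 4990.1 normalized counts, the dip and rise of Lgr4 at a higher level.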

How the data were processed

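The 10 genes and all lists were chosen with earlier results of these data known. The submitters' processing notes name HISAT2 2.1.0, the build GRCm39 and DESeq2 1.36.0; for the counter, annotation and strand setting, the sources used here give nothing. The authors deposited log2 normalized counts per gene and library; an error text marks genes without a read, taken here as 0. On the linear scale, 100% of values were whole multiples of 1 read (within 0.01 of a read). limma 3.58.1 in R 4.3.3 was fitted to log2(normalized count + 1), which understates changes of low genes, with 1 mean per day over 9 libraries and a variance trend (6 residual degrees of freedom). Tests were two-sided, adjusted by Benjamini-Hochberg at 0.05 over the 17338 genes that reached 10 normalized counts in 3 or more libraries. The fit was also run on simulated counts in which few genes changed, none of them low. That run does not bear on low genes or on data in which most genes change. Lengths, GC content and overlaps came by identifier from GENCODE M21 (GRCm38). Alternatives changed the pseudocount, filter, scaling, length and GC trend, replicate block and libraries; limma-voom on the reads read back, chosen after seeing the data, stood in for the planned count test. Named genes were the 10, the 3 tested genes of each other Wnt role with the largest change from day 1 to day 5 (at least 100 normalized counts on some day), Ctnnb1, Lrp5, Lrp6 and Tcf7l1, and the 3 nearest in pattern to Axin2 and Lgr4.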

Additional observations from a re-analysis of the deposited data

How the results depend on the processing

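Over the 560 recomputed log2 changes of the 8 tested genes, 547 kept their direction and their side of the threshold, 5 lost and 4 gained a call, and 4 changed sign. The sign changes were of uncalled steps: Lgr6 from day 1 to day 3 without 1 library (-0.21 to 0.94, below 0 without replicate 2 of day 1 at -0.03 and without replicate 3 of day 3), Tcf7 in that step after removal of the length and GC trend (-0.18), and Axin2 from day 3 to day 5 with quantile normalization (-0.30). Leaving out each library in turn, members that rose from day 3 to day 5 numbered 5 to 7, beside 5323 to 6043 of the 17338 tested genes. Members with a more negative second step numbered 1 to 2, the 2 without replicate 3 of day 3, beside 5068 to 5931 tested genes. They also numbered 2 after removal of the length and GC trend, beside 6003 genes. On the deposited log2 values with genes holding a 0 left out, Lgr6 and Nkd1 drop out. There, 3 of the 6 members tested rose from day 1 to day 5, beside 5554 genes. After removal of the length and GC trend, 15 of the other Wnt genes fell from day 3 to day 5. Apc (-0.18), Lrp5 (-0.12) and, in the first step, Fzd8 (0.22) then changed sign. Without 1 library, Fzd8 in the first step was -0.39 to 0.077, Lrp5 in the second -0.0083 to 0.26, Tnks2 in the second -0.23 to 0.022, and Ctnnb1 from day 1 to day 5 -0.46 to 0.025. Under quantile normalization the last 2 were 0.24 and 0.14. The cause of these changes was not tested. Replicate numbers did not pair libraries (correlations of deviations from day means -0.31 to 0.14 for the same number, -0.15 to 0.36 for others; 2 of 9 libraries were closest to their own number). With the replicate block, the counts of members called were the same in every comparison (1 and 4, 6 and 1, 5 and 3 up and down), and 15518 genes differed across days against 15851. Over all tested genes the block called 6026 up and 6180 down in the first step. It called 5655 and 5324 in the second, and 6151 and 6286 from day 1 to day 5. With the block, 4 rather than 7 genes of the destruction complex and core rose from day 3 to day 5, and the second steps of Apc (adjusted p = 0.083) and Ror1 (adjusted p = 0.051) did not pass. Depth limits Lgr5, Lef1, Nkd1 and the early days of Lgr6, where 1 read is worth 0.606 to 1.34 normalized counts. The planned count test was not run.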

Other observations

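The genes nearest to Lgr6 in pattern were looked up after its values were seen, by the measure used for Axin2 and Lgr4. The first 6 of 12662 were Dnali1 (0.49), Nme9 (0.66), Gm867 (0.66), Dnah5 (0.67), Deup1 (0.68) and Ccdc113 (0.68). Dnali1 and Dnah5 encode parts of the dynein arms that drive ciliary beating, Deup1 builds the deuterosomes from which multiciliated cells make their centrioles, and Ccdc113 is a ciliary protein. All 6 had at most 1 read on day 1 and at most 1 on day 3. On day 5, Dnali1 stood at 445 ± 73.1 normalized counts, Nme9 at 448 ± 34.0, Dnah5 at 404 ± 117 and Deup1 at 512 ± 117. Lgr6 had 4 and 5 reads on those days and 857 ± 71.2 normalized counts on day 5. The likeness is a description over 9 libraries of 3 days, and whether Lgr6 RNA sits in the same cells cannot be read from bulk libraries.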
